A study of Mus musculus with 6 samples.

Results

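Carboxylesterases are serine hydrolases that split ester, amide and thioester bonds, and the liver makes more of them than most organs. The 10 genes described here, Ces1b, Ces1c, Ces1d, Ces1e, Ces1f, Ces1g, Ces2a, Ces2c, Ces2e and Ces3a, were taken by symbol from the 24532 genes of the deposited gene table, which lists 19 genes with a Ces symbol in all. Their mRNA was measured in livers of wild-type C57BL/6 mice that ate chow containing 0.1% DDC (short for 3,5-diethoxycarbonyl-1,4-dihydrocollidine), a porphyrinogenic compound that injures bile ducts, over 4 weeks. During the final 2 of those weeks, 3 of these mice were given recombinant human cytoglobin (rhCYGB), a globin protein, at 2 mg/kg per injection and 2 injections per week, and 3 were given normal saline, the vehicle. Livers were collected 2 days after the last dose, and all 6 mice carried the DDC injury, so no uninjured liver is among them. The labels name each mouse, and the replicate numbers used below only name libraries and pair none of them.

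In rodents and humans the enzymes of this family cleave ester drugs, pesticides and other foreign esters, and several of them also act on triacylglycerol, cholesteryl ester and retinyl ester. Most carry a signal at the end of the protein that keeps them inside the endoplasmic reticulum, where they meet stored lipid and nascent lipoproteins, while mouse Ces1c is known as the carboxylesterase secreted into plasma. In mice the nuclear receptors PXR and CAR, which sense foreign compounds, control several of the genes.

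The end of the coding sequence is shown for all 10 genes because the signal for the endoplasmic reticulum is encoded there. Presence of its codons is used below to order the results, and where the proteins reside was not measured. Each line gives the last 27 bases on the coding strand, from the GENCODE M21 annotation of GRCm38, and the capitals mark the last 4 codons before the stop codon.
Ces1b: cctactgagcacAGAGAACACAAAtga
Ces1c: cctactgaacacACAGAACACAAAtga
Ces1d: tcccacagggaaCATGTTGAGCTCtga
Ces1e: ctgccgacagaaCACACTGAGCTGtga
Ces1f: ccccagccatacCACAATGAGCTGtga
Ces1g: tcccatagggaaCATGTTGAACTGtga
Ces2a: tctcaggacaagCATGCAGAGCTGtag
Ces2c: tctcaggacaagCACAGGGAGCTTtag
Ces2e: tctcaggagaggCACAAAGAGTTGtag
Ces3a: agcaggaaagttCCAGAGGAGCTCtga
In 7 of the 10 genes those 4 codons read histidine, any residue, glutamate, leucine, a form of the retention signal. In the other 3, Ces1b, Ces1c and Ces3a, they did not.

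All 10 genes lie on chromosome 8 in 2 groups (mm10). The Ces1 genes run from Ces1b at chr8:93056727-93080017 through Ces1c at chr8:93099016-93131283, Ces1d at chr8:93166072-93197804, Ces1e at chr8:93201218-93229619 and Ces1f at chr8:93256236-93279736 to Ces1g at chr8:93302369-93337209. The others run from Ces2a at chr8:104734003-104741634 through Ces2c at chr8:104847068-104854482 and Ces2e at chr8:104926260-104934672 to Ces3a at chr8:105048599-105058414. Near-identical copies matter for how reads are divided. Between annotated transcripts, 6 of the 10 genes shared no stretch of 100 identical bases with any other family transcript. Ces1b and Ces1c are 91.2% identical over 1662 aligned coding bases and shared 1.29% of the 100-base windows of Ces1b. Ces1c was at 2007 to 2885 TPM and Ces1b at 30.4 to 126 TPM over the 6 libraries. A small part of the Ces1c reads would therefore be large beside the Ces1b values, and its placement was not tested. Ces3a is 95.3% identical in coding sequence to its neighbour Ces3b and shared 9.09% of its windows with it. Ces2c shared 15.7% of its windows with the pseudogene Ces2d-ps. The split of reads within each of these pairs, Ces1b and Ces1c included, is uncertain.

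Total estimated counts ran from 59739026 to 72431373 in the rhCYGB libraries and from 58422095 to 66174274 in the vehicle libraries. The libraries did not separate by group. The rhCYGB replicate 1 library correlated at 0.974 to 0.981 with the vehicle libraries and at 0.896 and 0.927 with the other rhCYGB libraries (Pearson r of log2 CPM across the 14415 genes tested). The TMM scaling factor, which corrects for a few abundant genes taking up reads, was 1.18, 0.744 and 0.630 in rhCYGB replicates 1 to 3 and 1.45, 1.07 and 1.18 in vehicle replicates 1 to 3. Slopes of the length trend, listed in replicate order, were 0.211, -0.312 and -0.287 with rhCYGB and 0.354, -0.016 and 0.051 with vehicle. Nonzero estimated counts were found for 16060, 15542 and 14933 genes with rhCYGB, and for 16290, 16040 and 15992 with vehicle. The 2 scales used here differ in TMM scaling and in length correction, and the part of each in their gap was not tested. On CPM (counts divided by each library's total after TMM scaling) the median gene differed by -0.06 on the log2 scale, and on TPM (deposited FPKM rescaled to the same sum in every library, and so corrected for length) by -0.51 as log2(TPM + 1), rhCYGB minus vehicle. Summed TPM of 12 hepatocyte markers was 155915 to 179753 with rhCYGB and 141697 to 164311 with vehicle, and 4 of 5 adipose markers (Adipoq, Plin1, Cfd and Lep) were listed at 0 in all 6 libraries. Of 5 gut markers Cdx2 was listed at 0 in all 6 libraries and the other 4 had values, with summed TPM of 74.1 to 163 with rhCYGB and 52.0 to 116 with vehicle, most of it from Fabp2, and their part in the carboxylesterase values was not tested.

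With rhCYGB, 5 of the 6 Ces1 genes had higher values in the count model, and Ces1b stood highest among the 10 at a log2 fold change of 2.15. The 3 genes Ces1f, Ces2e and Ces3a had negative fold changes, each with an SE larger than its size. By edgeR's quasi-likelihood test with Benjamini-Hochberg adjustment over all 14415 genes, 0 of the 10 passed an adjusted p of 0.05, as did 0% of all genes. At an unadjusted p under 0.05, 5 of the 10 were higher (Ces1b, Ces1c, Ces1d, Ces1e and Ces1g) and 0 were lower, against 8.12% of all genes, 6.06% higher and 2.06% lower. The median log2 fold change of the 10 was 0.73. The 12 hepatocyte markers had a median of 0.72 in the same fit, with 12 of 12 higher, and their part in the members' fold changes was not tested. The split of higher against lower members was 7 to 3 by edgeR, where 46.8% of all genes had a fold change above 0. It was 5 to 5 by limma on log2(TPM + 1), and 6 to 4 relative to the median of all genes on that second scale. On log2(TPM + 0.1) that median was -0.75, and Ces2c at -0.68 moved from below the median to above it. The counts of members depended on rhCYGB replicate 1. Without that library edgeR called 6 of the 10 (Ces1b, Ces1c, Ces1d, Ces1e and Ces1g higher, Ces1f lower) and 23.2% of all genes. DESeq2 called 2 of the 7 members left by its filtering, Ces1b with an adjusted p of 0.0178 and Ces1g with 0.0291. It called 62 genes, 3.28% of only 1890 left by that filtering and so not a share of all genes. In whole tissue, fewer cells of a type and less RNA per cell cannot be told apart.

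**Figure D1:**
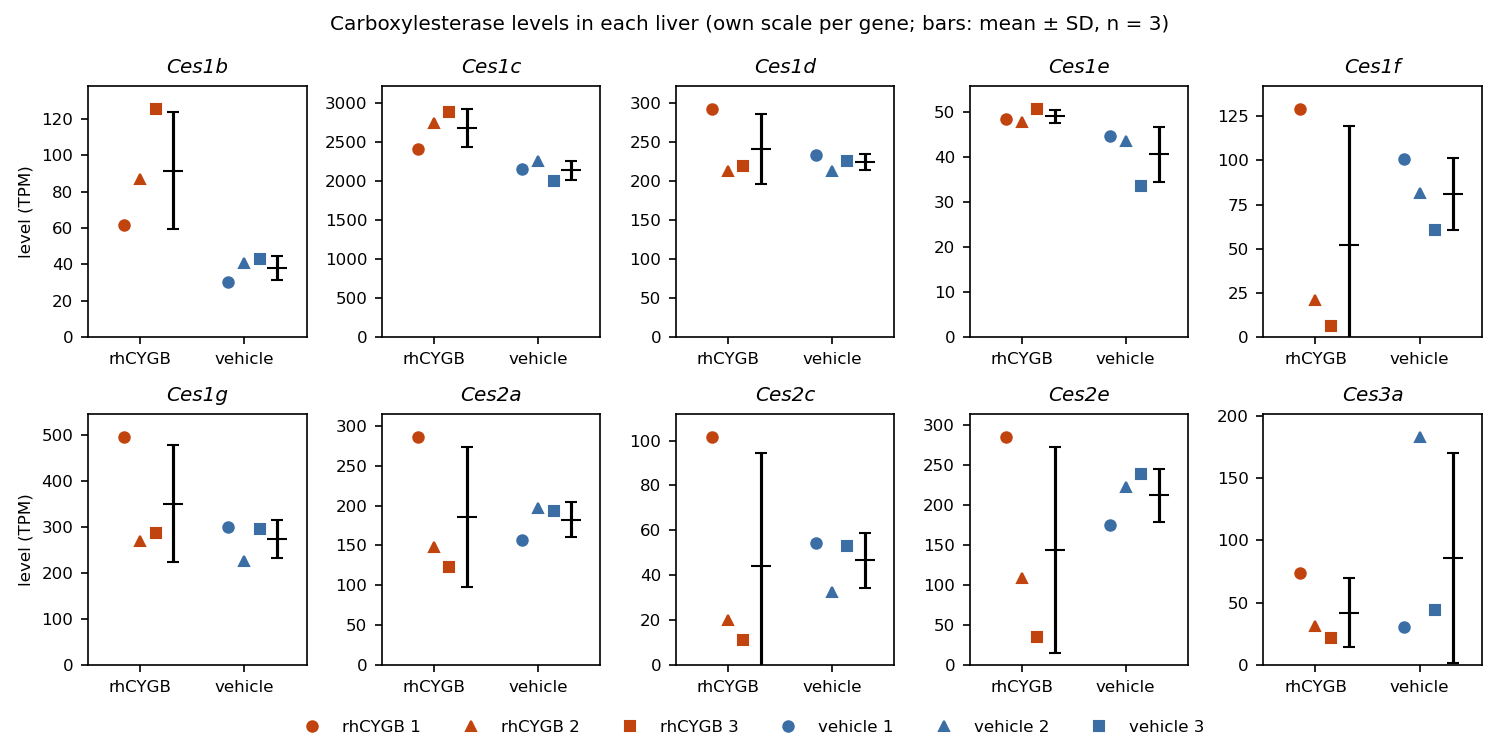
Level of each gene in TPM (vertical axis, a separate linear scale from 0 for each gene) in the 3 rhCYGB and 3 vehicle livers. Each symbol is a library, and the bars give mean ± SD (n = 3), drawn down to 0 where the SD exceeds the mean. For Ces1b, Ces1c and Ces1e all rhCYGB symbols lie above all vehicle symbols. For Ces1f, Ces2a, Ces2c and Ces2e rhCYGB replicate 1 is the highest library and rhCYGB replicate 3 the lowest.

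By level, Ces1c led in every library, and its range did not overlap that of any other member. It ranked 49 among all genes of the table by mean TPM. Ces1g followed, above Ces1d in 6 of 6 libraries, although the ranges of the pair over the 6 livers overlapped. Every later pair of neighbours in the order Ces1d, Ces2a, Ces2e, Ces1f, Ces1b, Ces3a, Ces2c and Ces1e overlapped as well. The genes also differed in how much they varied. Over the 6 libraries the coefficient of variation of TPM was 13.1% for Ces1d, 13.6% for Ces1e and 14.3% for Ces1c, and 70.7% for Ces1f, 71.7% for Ces2c and 95.8% for Ces3a. The highest library exceeded the lowest by 1.38-fold for Ces1d and by 20.4-fold for Ces1f. Extremes collected in 2 libraries: rhCYGB replicate 1 was the highest library for 6 of the 10 genes and the lowest for 0, and rhCYGB replicate 3 was the highest for 3 and the lowest for 5.

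Ces1b and Ces1c, the neighbouring Ces1 genes without the retention codons, had higher TPM in every rhCYGB liver than in any vehicle liver. Ces1b was at 61.7, 87.0 and 126 TPM in the 3 rhCYGB livers, against 30.4, 40.8 and 42.9 TPM in the vehicle livers. The groups did not overlap, and rhCYGB replicate 3 was highest. Its mean was 91.4 ± 32.1 TPM with rhCYGB and 38.1 ± 6.70 TPM with vehicle (SD, n = 3 each), and the edgeR log2 fold change was 2.15 (SE 0.59, unadjusted p = 0.00750, adjusted p = 0.523). Leaving out each library in turn gave log2 fold changes of 1.57 to 2.56, and the difference of log2(TPM + 1) was 1.20. Ces1c, the plasma enzyme, was at 2407, 2744 and 2885 TPM with rhCYGB and 2149, 2253 and 2007 TPM with vehicle. All 3 rhCYGB livers were above all 3 vehicle livers, with a gap between the nearest libraries that is small beside the level. In CPM the groups overlapped, at 2050.3, 4703 and 5778 with rhCYGB and 1407, 2338 and 1845 with vehicle. The Ces1c log2 fold change was 1.16 in the count model (SE 0.49, edgeR adjusted p = 0.523) and the difference of log2(TPM + 1) was 0.32. Summed over the near-identical pair, TPM was 2469, 2831 and 3011 with rhCYGB and 2179, 2294 and 2049.6 with vehicle.

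TPM groups did not overlap for 3 of the 10 genes, Ces1b, Ces1c and Ces1e, each higher with rhCYGB, against 1.33% of all genes, and for 0 in the lower direction, against 12.7% of all genes. On CPM the genes without overlap were Ces1b, Ces1d, Ces1g and Ces2a, 4 of 10 and all higher with rhCYGB, against 6.02% of all genes, with 0 lower against 7.38% of all genes. Ces1b was the member common to both sets.

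Among the Ces1 genes with the retention codons, Ces1d, Ces1e and Ces1g had higher values with rhCYGB in the count model and Ces1f did not. Ces1d, the triacylglycerol hydrolase that draws on stored fat for very-low-density lipoprotein, was at 293, 213 and 219 TPM with rhCYGB and 234, 213 and 227 TPM with vehicle. Of the rhCYGB livers, replicate 1 stood above the vehicle range and replicate 2 just below it. In CPM, where the groups did not overlap, Ces1d was at 267, 390 and 469 with rhCYGB and 164, 237 and 223 with vehicle, a log2 fold change of 0.85 (SE 0.33, edgeR adjusted p = 0.523), against a difference of 0.09 in log2(TPM + 1). Ces1g, a hydrolase that in mice limits fat in the liver and in secreted lipoprotein, was at 496, 269 and 287 TPM with rhCYGB and 300.04, 225 and 295 TPM with vehicle. Again rhCYGB replicate 1 was above all vehicle livers and the other 2 lay within their range. Its log2 fold change was 1.05 (SE 0.31, edgeR adjusted p = 0.523), and it lay between 0.91 and 1.17 with any library left out.

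Ces1e, known in mice as egasyn, the protein that holds beta-glucuronidase in the endoplasmic reticulum, was at 48.4, 47.8 and 50.6 TPM with rhCYGB and 44.6, 43.5 and 33.5 TPM with vehicle. The 3 rhCYGB livers were close together and above all vehicle livers. The log2 fold change of Ces1e was 1.09 (SE 0.38, edgeR adjusted p = 0.523) and its difference of log2(TPM + 1) was 0.28. Ces1f, a triacylglycerol hydrolase found on lipid droplets in mouse hepatocytes, was at 129, 20.9 and 6.33 TPM with rhCYGB and 101, 81.3 and 60.5 TPM with vehicle. Within the rhCYGB group 1 liver was above and 2 were below the whole vehicle range. The Ces1f log2 fold change was -0.38 (SE 0.69, edgeR adjusted p = 0.779), at -1.50 without rhCYGB replicate 1, where its adjusted p was 0.0471, and 0.08 without rhCYGB replicate 3. As a difference of log2(TPM + 1) it was -1.54, where the median gene was at -0.51.

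**Figure D2:**
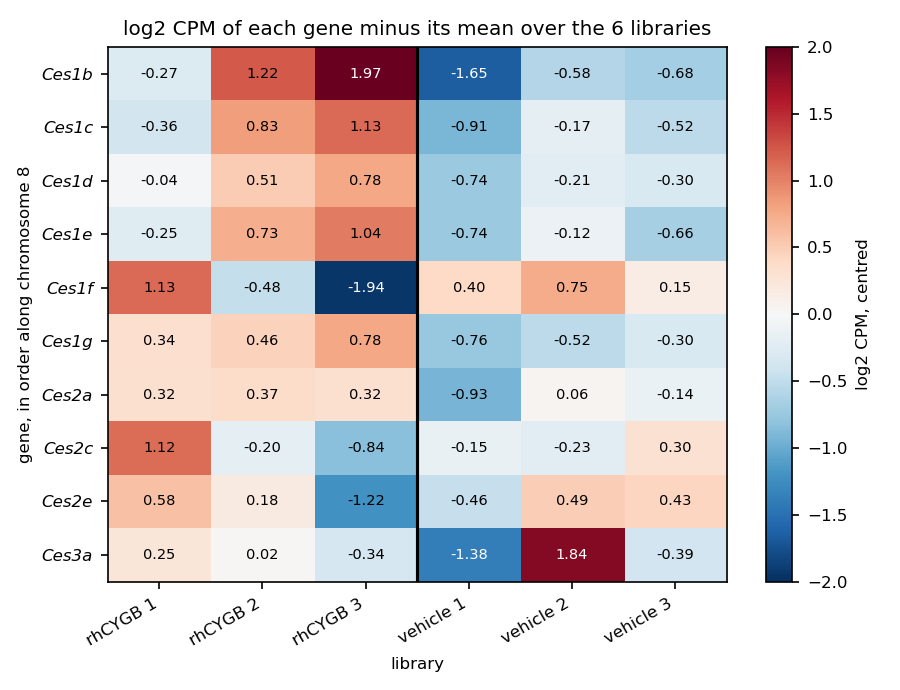
Log2 CPM of each gene (rows, in chromosome order) in each library (columns, rhCYGB left of vehicle) minus the gene's mean over the 6 libraries, with the value printed in each cell. Ces1b, Ces1c, Ces1d, Ces1e, Ces1g and Ces2a are above their means in rhCYGB replicates 2 and 3, while Ces1f, Ces2c and Ces2e are lowest in rhCYGB replicate 3.

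The Ces2 enzymes, which in humans and mice favour esters with a small acyl group and also act on glycerolipids, showed no common direction. Ces2a was at 287, 148 and 122 TPM with rhCYGB and 157, 196 and 194 TPM with vehicle. As with Ces1f, rhCYGB replicate 1 was above the vehicle livers and the other 2 were below them. Its CPM ran the other way, at 261, 270.5 and 262 with rhCYGB and 110, 217 and 190 with vehicle, with no overlap and a log2 fold change of 0.62 (SE 0.33, edgeR adjusted p = 0.523). Its difference of log2(TPM + 1) was -0.07, so the direction of Ces2a turned with the scale. Ces2c, a triacylglycerol and diacylglycerol hydrolase of mouse liver, was at 102, 20.1 and 10.97 TPM with rhCYGB and 54.3, 32.4 and 53.0 TPM with vehicle. Summed with the pseudogene Ces2d-ps, it came to 102, 33.9 and 10.97 TPM with rhCYGB and 74.4, 32.4 and 79.5 TPM with vehicle, and in both forms the groups overlapped. The Ces2c log2 fold change was 0.28 (SE 0.50, edgeR adjusted p = 0.776), and it was -0.48 without rhCYGB replicate 1 and -0.65 as a difference of log2(TPM + 1). Ces2e was at 286, 109 and 35.3 TPM with rhCYGB and 175, 222 and 239 TPM with vehicle. It spanned an 8.09-fold range over the livers, with both ends in the rhCYGB group. The log2 fold change of Ces2e was -0.19 (SE 0.50, edgeR adjusted p = 0.850), at -0.58 without rhCYGB replicate 1 and 0.17 without rhCYGB replicate 3. Its difference of log2(TPM + 1) was -1.01, where the median gene was at -0.51.

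Ces3a, the third of the genes without the retention codons, was at 73.7, 31.2 and 21.2 TPM with rhCYGB and 30.6, 183 and 43.7 TPM with vehicle. The vehicle replicate 2 library was far above the other 5 libraries, and the groups overlapped. The Ces3a log2 fold change was -0.66 (SE 0.76, edgeR adjusted p = 0.666) and turned to 0.81 when vehicle replicate 2 was left out. Its near-identical neighbour Ces3b was at 74.9, 29.5 and 62.4 TPM with rhCYGB and 17.3, 56.8 and 31.95 TPM with vehicle (log2 fold change 1.27, SE 0.62, edgeR adjusted p = 0.523). Summed, the pair came to 149, 60.6 and 83.6 TPM with rhCYGB and 47.8, 240.0 and 75.6 TPM with vehicle, and the groups overlapped.

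Without rhCYGB replicate 1, the TPM of Ces1f, Ces2a, Ces2c and Ces2e in the 2 remaining rhCYGB livers lay below all vehicle livers, 4 of 10 genes against 73.6% of all genes. Ces1b, Ces1c and Ces1e lay above them, 3 of 10 against 6.44% of all genes.

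**Figure D3:**
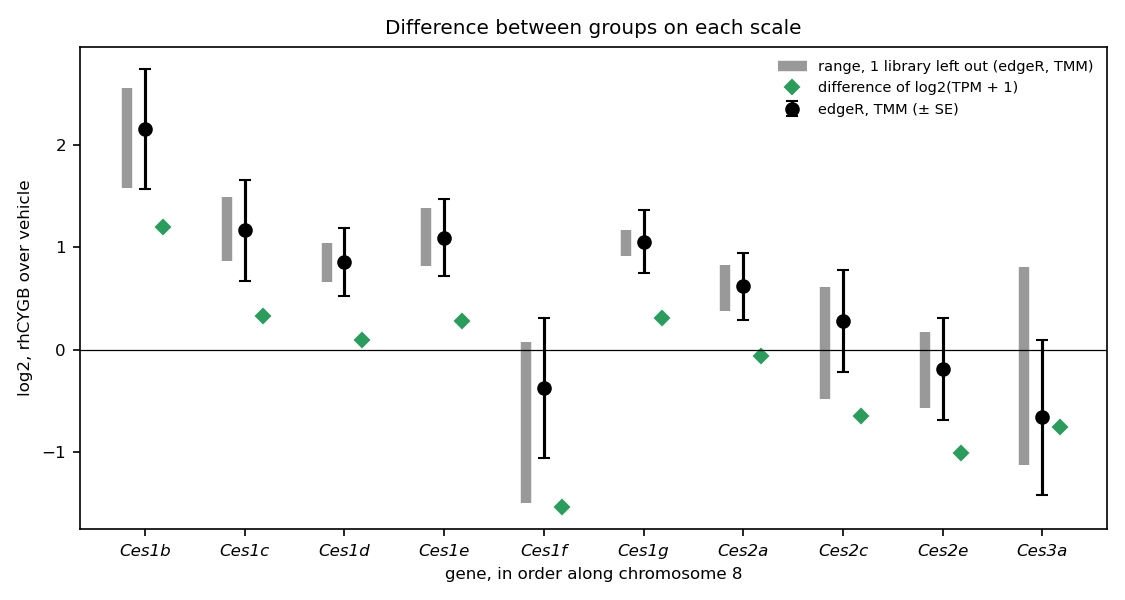
Log2 difference of each gene, rhCYGB over vehicle (vertical axis), with the genes in chromosome order. Black points are edgeR log2 fold changes ± SE, grey bars the range of that fold change with 1 library left out, and green diamonds the difference of log2(TPM + 1). The grey bars of Ces1f, Ces2c, Ces2e and Ces3a cross 0, and the diamonds lie below the points, the median gene being at -0.51 on that scale and -0.06 in edgeR.

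Proportions within the family do not depend on scaling between libraries. Of the summed TPM of the 10 genes, Ces1b made up 1.48%, 2.36% and 3.34% with rhCYGB and 0.929%, 1.17% and 1.34% with vehicle. The groups did not overlap, and an exact permutation test of the difference of the means gave a two-sided p of 0.1. That is the smallest that 3 livers against 3 allow, and with Benjamini-Hochberg adjustment over the 10 shares tested it was 0.8. With Ces1c left out of the total the Ces1b shares were 3.48%, 9.20% and 14.3% with rhCYGB and 2.70%, 3.30% and 3.61% with vehicle, and these overlapped. Ces1c made up 57.5%, 74.4% and 76.7% with rhCYGB, against 65.6%, 64.5% and 62.8% with vehicle. In rhCYGB replicate 1 its share was below every vehicle liver and in the other 2 above. Ces2e made up 6.83%, 2.96% and 0.939% with rhCYGB and 5.35%, 6.37% and 7.47% with vehicle, again with overlap (exact permutation p = 0.3). The summed TPM itself was 4183, 3690.0 and 3763 with rhCYGB and 3276, 3492 and 3194 with vehicle, without overlap. On the CPM scale the log2 sums were 11.877, 12.67 and 12.92 with rhCYGB and 11.13, 11.882 and 11.59 with vehicle, and these overlapped. The mean difference was 0.22 for log2 summed TPM and 0.96 for log2 summed CPM. Leaving Ces1c out of the sum gave 1776, 946 and 878 TPM with rhCYGB and 1127, 1238 and 1188 TPM with vehicle, and these sums overlapped.

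**Figure D4:**
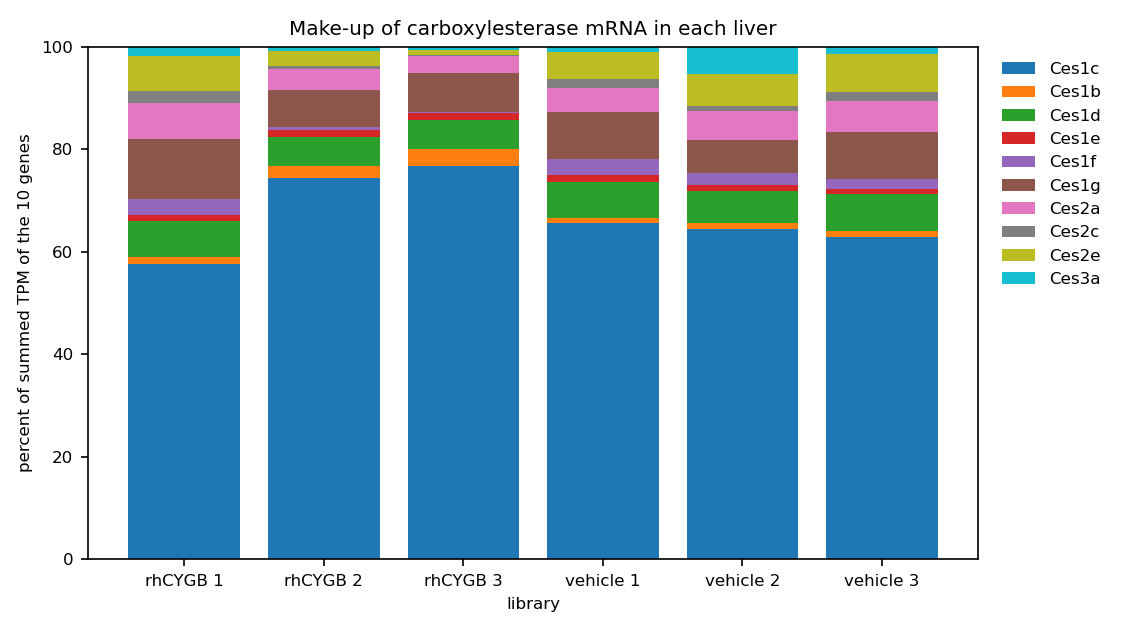
Percent of the summed TPM of the 10 genes taken by each gene (stacked bars, starting at 0) in each library, rhCYGB left of vehicle. Ces1c fills 57.5% to 76.7% of a bar with rhCYGB and 62.8% to 65.6% with vehicle, with an SD of 10.4 percentage points among the rhCYGB bars and 1.40 among the vehicle bars.

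Set against hepatocyte markers in the same library, the log2 ratio of the 10 genes' geometric mean TPM to that of 12 markers was -4.78, -5.71 and -6.14 with rhCYGB and -5.44, -5.34 and -5.41 with vehicle. The 2 sets overlapped. Taken alone, the ratio for Ces1b was -6.45, -5.96 and -5.44 with rhCYGB and -7.48, -7.17 and -6.99 with vehicle, and for Ces1c it was -1.16, -0.98 and -0.92 with rhCYGB and -1.34, -1.38 and -1.45 with vehicle. Both were higher in every rhCYGB liver, as was that of Ces1e. Markers of other cells were read in TPM, where the median gene was at -0.51 as log2(TPM + 1). Summed TPM of 7 cholangiocyte markers was 127 to 886 with rhCYGB and 1178 to 2055 with vehicle. Most of it came from Spp1, at 822, 225 and 72.9 TPM with rhCYGB and 1923, 1111 and 1261 TPM with vehicle. Each other marker of that list overlapped between groups in TPM. The sum of 8 stellate cell and myofibroblast markers was 31.8 to 201 with rhCYGB and 278 to 430.0 with vehicle. That of 7 macrophage markers, mostly Lyz2, was 776 to 1936 with rhCYGB and 2264 to 3529 with vehicle. In each of these 3 sums rhCYGB replicate 1 was the rhCYGB library nearest to the vehicle range. In CPM, 2 of 7 cholangiocyte, 4 of 8 stellate cell and myofibroblast and 0 of 7 macrophage markers were lower without overlap, against 7.38% of all genes. Summed TPM of 5 endothelial markers overlapped, at 21.3 to 93.6 with rhCYGB and 60.1 to 109 with vehicle. The part of these markers in the carboxylesterase values was not tested.

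The transcript table held 13 isoforms of the 10 genes that could be tested, and 0 passed an adjusted p of 0.05 by edgeR over 19664 transcripts, as did 0% of all transcripts. At an unadjusted p under 0.05 there were 4 of the 13, those of Ces1b, Ces1d, Ces1e and Ces1g, all higher with rhCYGB, against 4.04% of all transcripts. DESeq2 called 1, the Ces1g transcript NM_021456 (log2 fold change 0.97, adjusted p = 0.0162), against 1.20% of transcripts. Without rhCYGB replicate 1 edgeR called 0 of the isoforms and 4.69% of all transcripts. Of Ces2e, NM_001163756 supplied 85.8%, 90.9% and 89.5% of the gene's TPM with rhCYGB and 76.1%, 87.6% and 86.5% with vehicle. Of Ces3a, the minor transcript NM_001164681 supplied 13.7%, 16.0% and 41.9% with rhCYGB and 11.1%, 14.4% and 13.4% with vehicle, and rhCYGB replicate 3 was apart from the other 5 libraries.

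The bases before the gene starts are shown for Ces1b, Ces1c and Ces1e, whose TPM did not overlap between groups, and for Ces2e, whose level spread widely. Each line gives the 250 bases upstream of the start on the gene's strand (RefSeq, GRCm38.p6), at chr8:93080018-93080267, chr8:93131284-93131533 and chr8:93229620-93229869 on the minus strand and chr8:104926010-104926259 on the plus strand, and capitals mark matches to TTGCNNAA, a core form of the site of the liver factors C/EBP, on either strand.
Ces1b: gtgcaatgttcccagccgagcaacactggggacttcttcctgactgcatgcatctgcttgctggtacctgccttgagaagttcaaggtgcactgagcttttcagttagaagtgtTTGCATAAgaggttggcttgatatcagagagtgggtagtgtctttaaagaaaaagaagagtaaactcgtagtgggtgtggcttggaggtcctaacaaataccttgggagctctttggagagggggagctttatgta
Ces1c: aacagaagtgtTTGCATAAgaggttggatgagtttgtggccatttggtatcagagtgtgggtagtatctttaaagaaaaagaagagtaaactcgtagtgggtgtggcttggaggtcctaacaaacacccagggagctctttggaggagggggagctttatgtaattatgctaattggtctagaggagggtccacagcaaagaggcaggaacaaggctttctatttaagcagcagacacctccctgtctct
Ces1e: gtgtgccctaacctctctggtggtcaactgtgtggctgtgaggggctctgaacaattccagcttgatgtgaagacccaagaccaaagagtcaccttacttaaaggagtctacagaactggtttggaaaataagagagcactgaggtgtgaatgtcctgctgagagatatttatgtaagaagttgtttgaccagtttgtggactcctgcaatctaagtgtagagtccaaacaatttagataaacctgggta
Ces2e: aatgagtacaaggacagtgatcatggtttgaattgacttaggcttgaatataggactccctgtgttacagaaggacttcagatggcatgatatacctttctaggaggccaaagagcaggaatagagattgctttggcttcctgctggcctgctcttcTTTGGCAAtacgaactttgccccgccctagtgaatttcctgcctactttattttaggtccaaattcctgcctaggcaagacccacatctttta
The Ces1b and Ces1c sequences aligned over 209 bases of the 300 around each start with 93.3% identity, and both hold the match TTGCATAA, whose first base is at -136 in Ces1b and -239 in Ces1c. No other of the 21 pairs of member promoters exceeded 69.4% identity. RefSeq sequences were matched for 7 of the 10 genes, without Ces1d, Ces1f and Ces3a. In the 300 bases from 250 before to 50 after the start, TTGCNNAA on either strand was present in 4 of these 7 (Ces1b, Ces1c, Ces2a and Ces2e), against 10.8% of 32851 mouse promoters. The nuclear receptor motif AGGTCA was present in Ces2a alone, against 16.3% of promoters, and TATAAA in Ces1g alone, against 13.6%. The letters TTCNNNGAA (STAT5), TGACNNNGC (antioxidant response element) and CACGTG (E-box) were in none of the 7 windows, against 8.30%, 12.4% and 7.15% of promoters. The 6 motifs can overlap each other, and a match describes letters only.

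Genes with related roles were read beside the family. None of the genes on these lists passed an adjusted p of 0.05 by edgeR. In that fit 46.8% of all genes had a fold change above 0, and 6.06% were higher at an unadjusted p under 0.05. Of the 12 hepatocyte markers, 12 were higher in it (median log2 fold change 0.72, 1 at that p). Of 12 other hydrolases of foreign compounds, 11 had higher values with rhCYGB (median log2 fold change 0.68, 1 at an unadjusted p under 0.05), the most abundant being the microsomal epoxide hydrolase Ephx1 at 858 ± 140.1 TPM with rhCYGB and 771 ± 121 TPM with vehicle. Aadac, an arylacetamide deacetylase of the endoplasmic reticulum, averaged 345 ± 230.1 TPM with rhCYGB and 432 ± 35.5 TPM with vehicle, and Pon1, the plasma paraoxonase, 337 ± 47.0 TPM with rhCYGB and 386 ± 63.0 TPM with vehicle. These 3 overlapped between groups in TPM. Of 11 neutral lipid enzymes tested, listed as hydrolases although Lcat forms esters, 7 had higher values (median 0.32, 2 at that p). Lcat, which esterifies plasma cholesterol, had a log2 fold change of 0.96, lysosomal lipase Lipa one of -0.29 and lipoprotein lipase Lpl one of -0.25.

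Of 14 lipid droplet and lipoprotein assembly genes, 11 had higher values (median 0.37, 3 at an unadjusted p under 0.05). Plin2, the main coat protein of hepatocyte lipid droplets, was at 450.2, 196 and 33.6 TPM with rhCYGB and 448, 389 and 472 TPM with vehicle. Like Ces1f and Ces2e it was lowest in rhCYGB replicate 3, and its log2 fold change was -0.52 (SE 0.60, edgeR adjusted p = 0.670). Apob had a log2 fold change of 0.38 and Cideb one of 0.42.

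Among 12 nuclear regulators, 7 had higher values (median 0.36, 1 at an unadjusted p under 0.05). That 1 was Nr1i3, which encodes CAR, at 78.1, 158 and 183 TPM with rhCYGB and 88.2, 47.8 and 65.1 TPM with vehicle. In rhCYGB replicates 2 and 3 it was above every vehicle liver, and in replicate 1 within their range (log2 fold change 2.07, SE 0.58, edgeR adjusted p = 0.523). Hnf4a, a master factor of hepatocyte genes, had a log2 fold change of 0.81 and its partner receptor Rxra one of 0.71. Of 12 targets of CAR and PXR, 10 had higher values (median 1.11), 7 of them at an unadjusted p under 0.05. The glutathione transferase Gsta2 was at 766, 751 and 726 TPM with rhCYGB and 357, 302 and 498 TPM with vehicle, without overlap, and Gstm1 averaged 9620 ± 2186 TPM with rhCYGB and 6287 ± 1581 TPM with vehicle. Cyp3a11, a drug-oxidising cytochrome, had a log2 fold change of 0.19.

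Of the 9 other family genes in the table, 5 could be tested, and the highest besides Ces3b was Ces2g at 37.8, 12.4 and 9.37 TPM with rhCYGB and 37.8, 23.0 and 23.4 TPM with vehicle (log2 fold change 0.04). Ces2d-ps was listed at 0 in rhCYGB replicates 1 and 3 and vehicle replicate 2, and at 13.8 TPM in rhCYGB replicate 2 and 20.0 and 26.5 TPM in vehicle replicates 1 and 3. Ces2f and Ces5a were listed at 0 in all 6 libraries.

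The mean profile of the 10 genes, as log2 CPM centred on the 6 libraries, was 0.28, 0.36 and 0.17 in the rhCYGB livers and -0.73, 0.13 and -0.21 in the vehicle livers. Among 3535 genes outside the family with a mean log2 CPM of at least 5, the smallest root-mean-square distances to it belonged to Akr1e1 at 0.0716, Nr1i2, which encodes PXR, at 0.109, Dera at 0.114, Otc at 0.129 and Suclg1 at 0.131, and the median distance was 0.466. Of the members themselves, Ces2a lay at 0.112, Ces1d at 0.320 and Ces1g at 0.368 from the mean profile. Every other member lay farther from it than that median, up to 0.989 for Ces1b and 1.13 for Ces1f. The mean thus averages unlike profiles, and nearness to it is not nearness to each member. These distances rest on 6 libraries that share their scaling factors. None of the 5 outside genes passed the edgeR threshold, their log2 fold changes running between 0.36 for Otc and 0.53 for Suclg1.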

How the data were processed

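Liver mRNA of 6 mice was sequenced from stranded poly(A) libraries, per the labels' protocols. For genes and transcripts alike, the authors deposited estimated counts and FPKM, and for transcripts also lengths, whose TPM-weighted mean was taken here as a gene's length. HISAT2 2.1.0, StringTie 1.3.4d and FastQC 0.11.7 were used with mm10, per the submitters' processing notes. Neither the annotation release nor the strand setting of the counting is given in the sources used, which leaves overlapping and antisense genes uncertain. The deposited estimated counts are whole numbers derived from coverage, not tallies of reads, so the spread between mice sets the precision.

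Here, FPKM was rescaled to TPM within each library. Counts were tested in R 4.3.3 with edgeR 4.0.16: filterByExpr, TMM, robust quasi-likelihood F test and Benjamini-Hochberg adjustment over 14415 genes or 19664 transcripts, with a threshold of 0.05. The absolute fold change (log2) divided by the root of its F gave the SE. The tests were also run on simulated data. Alternatives used DESeq2 1.42.0, limma 3.58.1 with a pseudocount of 1 or 0.1 on TPM, other scaling and filters, an offset for transcript length, and each library left out in turn. Shares were compared by exact permutation, with Benjamini-Hochberg adjustment over the 10 members. For the summed family TPM and the ratio to hepatocyte markers, values are given with no test. 

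All 10 members are printed for every library. From each related list, members past the threshold are named, filled up to 3 with those of highest mean TPM, along with the 5 genes nearest in profile. The members and lists were chosen with earlier results of these data known. Sequences are from RefSeq (GRCm38.p6) and GENCODE M21 (GRCm38).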

Additional observations from a re-analysis of the deposited data

How the results depend on the processing

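Over 15 alternatives for each of the 10 members, 128 of 150 fold changes kept their direction without passing the threshold, 13 passed the threshold and 9 turned sign. The 128 include Ces1e, Ces1f and Ces2c by DESeq2, whose filtering left them no adjusted p. The genes called were 0 by edgeR with TMM, 62 of the 1890 left by filtering in DESeq2, 4410 (30.6%) by limma-voom with sample quality weights, and 0 to 3391 with 1 library left out. Members called were 0, 2, 5 (Ces1b, Ces1c, Ces1d, Ces1e and Ces1g) and 0 to 6 in the same settings, and member transcripts 0 by edgeR, 1 by DESeq2 and 0 in every fit with a library left out. Counts of 3391 and 6 came from leaving out rhCYGB replicate 1. Ces2a turned to -0.066 on log2(TPM + 1) and -0.067 on log2(TPM + 0.1). Ces2c turned to -0.32 by limma-voom, -0.65 on log2(TPM + 1) and -0.68 on log2(TPM + 0.1). With 1 library left out, log2 fold changes ran from -0.48 to 0.61 for Ces2c, -1.50 to 0.076 for Ces1f, -0.58 to 0.17 for Ces2e and -1.13 to 0.81 for Ces3a, and differences in share, in percentage points, from -0.038 to 0.12 for Ces1e, -0.83 to 1.45 for Ces1g and -0.998 to 0.073 for Ces2c. The mean log2 ratio of the family to hepatocyte markers differed by -0.15, by 0.11 with sums in place of geometric means, and by -0.53 to 0.15 with 1 library left out. The cause of these turns was not tested. With the length trend removed edgeR called 0 genes, as in the main fit, so there was no call to lose. At an unadjusted p under 0.05 by edgeR there were then 6 members and 1684 genes, against 5 and 1170 in the main fit. No paired analysis was possible because the labels give the mice no shared replicate numbers.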
